A study of Mus musculus with 7 samples.

Results

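The CXCL12 axis was followed through the cells of irradiated and control malignant peripheral nerve sheath tumors (MPNSTs) of mice. It comprised 3 genes, Cxcl12, Cxcr4 and Ackr3, which were picked by symbol from the 33696 genes of the count tables, and all 3 were detected in each of the 7 tumors. The tumors grew from JW23.3, a single mouse MPNST line with mutations of Nf1 and Trp53, after cells of the line had been placed under the flank skin of wildtype female C57/B6 mice aged 5 to 6 weeks. Mice were randomized on day 7, the irradiated group (4 tumors) received 5 daily fractions of 2 Gy, the control group (3 tumors) received none, and all tumors were harvested on day 21. Each tumor gave 1 single-cell RNA library, and the tumor was the replicate. Both groups carried the same tumor cells in hosts of the same sex and strain, and because the host immune system was intact, host leukocytes, vessels and connective tissue were profiled alongside the tumor cells.

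CXCL12 is a secreted chemokine of stromal and endothelial cells that binds heparan sulfate on cell surfaces and attracts leukocytes and progenitor cells. CXCR4 is its signaling receptor, a G protein-coupled receptor that drives directed migration through inhibitory G proteins. ACKR3 is an atypical receptor that does not couple to G proteins in the usual way, recruits arrestins and removes CXCL12 from the surroundings. In tumors the axis is known for the retention of myeloid cells and T cells in stroma and for the guidance of growing vessels, in which CXCR4 marks tip cells.

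In the annotation of the mouse build GRCm38 (GENCODE M21), Cxcl12 (ENSMUSG00000061353) lies on the plus strand at chr6:117168535-117181367. Cxcr4 (ENSMUSG00000045382) lies on the minus strand at chr1:128588199-128592293, and Ackr3 (ENSMUSG00000044337) lies on the plus strand at chr1:90203980-90216751. The 250 bases before each gene's RefSeq start are shown because hypoxia, through HIF proteins, is a known regulator of this axis and the cells were later compared by their hypoxia gene level. The sequences are RefSeq's for GRCm38.p6, written 5′ to 3′ on the strand of the gene, and capitals mark a match to ACGTG or GCGTG, the core letters of the hypoxia response element, searched on both strands. The regions are chr6:117168285-117168534 (plus strand) for Cxcl12, chr1:128592300-128592549 (minus strand) for Cxcr4 and chr1:90203730-90203979 (plus strand) for Ackr3. RefSeq and GENCODE give the same start for Cxcl12 and Ackr3, whereas the RefSeq start of Cxcr4 lies a few bases outside the GENCODE gene, so its region does not adjoin the coordinates above.
Cxcl12: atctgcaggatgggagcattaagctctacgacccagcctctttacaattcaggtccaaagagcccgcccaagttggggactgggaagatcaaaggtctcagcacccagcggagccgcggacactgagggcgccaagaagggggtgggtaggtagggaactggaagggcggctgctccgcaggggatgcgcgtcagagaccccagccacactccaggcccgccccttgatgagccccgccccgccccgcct
Cxcr4: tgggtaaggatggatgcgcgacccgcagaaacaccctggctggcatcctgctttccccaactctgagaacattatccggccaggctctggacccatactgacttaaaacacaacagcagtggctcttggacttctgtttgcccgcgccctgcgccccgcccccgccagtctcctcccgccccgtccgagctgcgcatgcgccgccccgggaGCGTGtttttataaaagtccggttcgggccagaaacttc
Ackr3: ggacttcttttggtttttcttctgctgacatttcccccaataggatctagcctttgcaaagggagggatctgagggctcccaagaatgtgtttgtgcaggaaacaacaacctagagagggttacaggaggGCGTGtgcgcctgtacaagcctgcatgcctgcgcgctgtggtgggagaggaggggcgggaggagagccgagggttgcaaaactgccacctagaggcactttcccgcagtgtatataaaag
The Cxcr4 window held 1 match, whose first base lay 39 bases before the RefSeq start, and the Ackr3 window held 1 match at 120 bases before its start. The Cxcl12 window held 0 matches. Of 32851 mouse promoter windows of the same length, 38.6% held a match, so a match in a window of this length was common. The GC content was 64.4% for Cxcl12, 61.2% for Cxcr4 and 54.0% for Ackr3, beside a median of 52.4% over all windows.

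In total, 39537 cells were sequenced to 646559899 UMIs (unique molecular identifiers), with 2859 to 8452 cells and 53496570 to 153044123 UMIs per tumor, and 34296 cells were retained after filtering. By depth, cell number and mitochondrial share the libraries were split into 2 technical sets that crossed the groups, with irradiated 1, control 2 and control 3 in set 1 and the other 4 tumors in set 2. This was the best of 63 possible splits and left a share of 0.431 of the spread within sets (0.539 for the next). No label names a batch. Differences within sets rest on 1 irradiated tumor in set 1 and on 1 control tumor in set 2. Clusters were named from marker lists, and MPNST-like clusters also needed a low share of cells with Xist, a transcript of the female host cells. The classes compared were MPNST-like (16287 cells), macrophage-like (12719), T/NK-like (1575), endothelial-like (622), fibroblast-like (431), dendritic-like (409) and pericyte-like (241). Clusters without a clear list stayed unnamed. The host classes had 12 of 14 (fibroblast-like) to all of their markers highest in their own class, but only 6 of 15 MPNST markers were highest in MPNST-like cells. Col11a1, Crabp1 and Sox9 were among these 6, whereas the Schwann lineage genes Erbb3 and Ngfr were near 0 (0.114 and 0.0275 on the counts-per-million scale, CPM) and Igf2 was at 0. Of the distinct barcodes, 190 of 39347 (0.48%) occurred in more than 1 library, and Scrublet marked 2.14% of retained cells as doublets.

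Most transcripts of the ligand lay in malignant cells, and most transcripts of its signaling receptor lay in macrophages. Over the 7 tumors, MPNST-like cells held 93.5% ± 2.00 (SD, n = 7) of the Cxcl12 UMIs of a tumor, and macrophage-like cells held 87.8% ± 3.07 of the Cxcr4 UMIs. The scavenging receptor followed the ligand, with 88.1% ± 5.37 of Ackr3 UMIs in MPNST-like cells. These shares rested on 150762 Cxcl12, 25768 Cxcr4 and 23668 Ackr3 UMIs in retained cells and depend on how many cells of a class were captured as well as on the level in each. The fibroblast-like cells, with 0.385% to 1.35% of all UMIs of a tumor, held 1.80% to 16.5% of its Ackr3 UMIs.

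**Figure D1:**
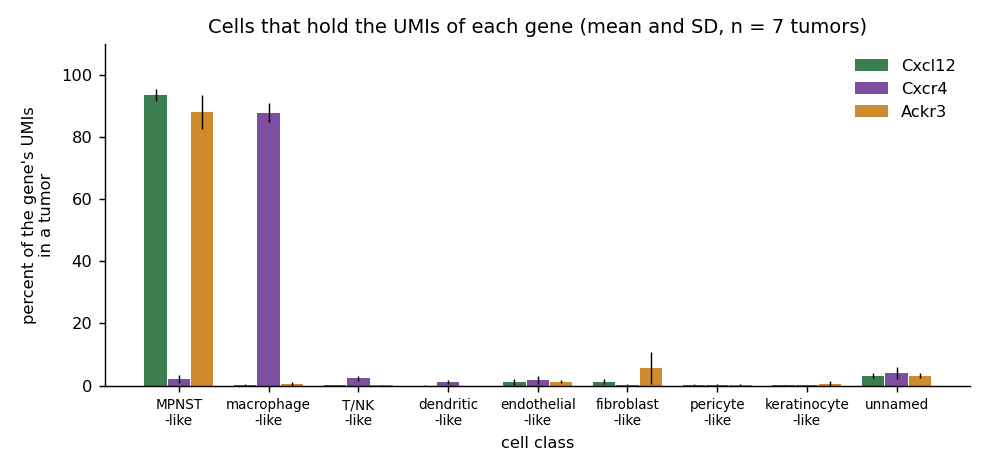
Percent of each gene's UMIs in a tumor (vertical axis) by cell class, with bars for the mean and lines for the SD over 7 tumors. Cxcl12 and Ackr3 stand highest in MPNST-like cells (93.5% and 88.1%) and Cxcr4 in macrophage-like cells (87.8%).

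Levels were compared as CPM, the UMIs of a gene over those of all genes in the same class and tumor on the counts-per-million scale. Because each class was scaled to its own total, a level is a share of the RNA of that class and not an amount per cell. Mean levels of Cxcl12 over the tumors were 298 ± 60.3 CPM (SD, n = 7) in MPNST-like, 266 ± 97.9 in fibroblast-like, 230 ± 58.6 in endothelial-like and 152 ± 66.0 (n = 6) in pericyte-like cells. The pericyte-like cells of irradiated 4 were only 13 and were left out. Far lower came T/NK-like cells with 38.7 ± 24.3 CPM, dendritic-like cells with 10.2 ± 8.76 and macrophage-like cells with 4.98 ± 4.75. MPNST-like cells also held 53.4% to 80.8% of all UMIs of a tumor, which enters their share of the Cxcl12 UMIs.

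In MPNST-like cells, Cxcl12 stood at 253, 329, 354 and 266 CPM in irradiated tumors 1 to 4 and at 378, 207 and 299 CPM in control tumors 1 to 3. The lowest and the highest value were both controls. In fibroblast-like cells it was 183, 261, 365 and 194 CPM in the irradiated and 138, 391 and 327 CPM in the control tumors. In endothelial-like cells it was 262, 202, 244 and 206 CPM against 270, 303 and 125 CPM. In both stromal classes the control tumors spanned the wider range and the groups overlapped.

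Neighbors in the order of levels were compared within tumors by a two-sided exact sign-flip permutation test on log2(CPM + 1), with adjustment over the 18 neighbor pairs of the 3 genes. After adjustment 0 pairs passed 0.05 (smallest adjusted p 0.0804), and 7 pairs had an unadjusted p under 0.05. For Cxcl12, MPNST-like cells did not differ beyond their spread from fibroblast-like cells (difference 0.23 ± 0.72, SD over tumors, higher in 4 of 7), nor fibroblast-like from endothelial-like cells (0.16 ± 0.77, higher in 4 of 7). The step from pericyte-like to T/NK-like cells was 1.77 ± 1.20 and held in 6 of 6 tumors (exact permutation p 0.0312, the smallest possible; adjusted p 0.0804). T/NK-like cells lay above dendritic-like cells by 2.07 ± 1.60 in 6 of 7 tumors (exact permutation p 0.0312, adjusted p 0.0804), and dendritic-like and macrophage-like cells were not separated (0.54 ± 1.39).

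Cxcr4 was high in the leukocyte classes and in endothelial-like cells and low in MPNST-like cells. Its mean was 219 ± 30.5 CPM (SD, n = 7) in macrophage-like, 85.1 ± 23.6 in T/NK-like, 79.7 ± 58.6 in endothelial-like and 75.7 ± 45.5 in dendritic-like cells. Pericyte-like cells held 15.4 ± 19.7 (n = 6), fibroblast-like cells 12.6 ± 9.57 and MPNST-like cells 1.10 ± 0.488 CPM. A single pericyte-like cell held 18 of the 49 Cxcr4 UMIs of its class, and a single endothelial-like cell held 56 of 470. Within tumors the pericyte-like minus fibroblast-like difference was -0.81 ± 1.56 on the log2(CPM + 1) scale, so these classes were not ordered. In macrophage-like cells the irradiated tumors gave 163, 244, 247 and 205 CPM and the controls 238, 202 and 234 CPM, and the groups overlapped.

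In T/NK-like cells Cxcr4 was 56.5, 127, 81.7 and 78.4 CPM in the irradiated and 73.2, 106 and 73.0 CPM in the control tumors. Macrophage-like cells exceeded T/NK-like cells in 7 of 7 tumors, by 1.39 ± 0.33 on the log2(CPM + 1) scale (exact permutation p 0.0156, the smallest possible; adjusted p 0.0804). T/NK-like, endothelial-like and dendritic-like cells could not be ordered, with differences of 0.93 ± 2.82 and -0.50 ± 3.03 between neighbors. Endothelial-like cells spread widest, at 83.4, 0, 183 and 93.7 CPM in the irradiated and 58.4, 32.4 and 107 CPM in the control tumors. The value of 0 came from irradiated 2, whose 25 endothelial-like cells held 228188 UMIs, which allows a level of up to 13.1 CPM by counting error alone. Dendritic-like cells lay above pericyte-like cells in 6 of 6 tumors (2.93 ± 1.71, exact permutation p 0.0312, adjusted p 0.0804).

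Ackr3 was highest in fibroblast-like cells, at 219 ± 131 CPM (SD, n = 7). Endothelial-like cells followed with 60.1 ± 34.7, MPNST-like cells with 47.3 ± 14.9 and pericyte-like cells with 29.9 ± 16.2 (n = 6). The leukocyte classes were nearly free of it, at 3.34 ± 3.00 CPM for T/NK-like, 0.923 ± 0.594 CPM for macrophage-like and 0.458 ± 1.21 CPM for dendritic-like cells, the last resting on 2 UMIs in all. Fibroblast-like cells were above endothelial-like cells in 7 of 7 tumors, by 1.83 ± 1.11 on the log2(CPM + 1) scale (exact permutation p 0.0156, the smallest possible; adjusted p 0.0804). Endothelial-like, MPNST-like and pericyte-like cells were not separated (0.18 ± 0.63 and 0.82 ± 0.86), and pericyte-like cells exceeded T/NK-like cells in 6 of 6 tumors (3.05 ± 2.00, exact permutation p 0.0312, adjusted p 0.0804). A single pericyte-like cell held 29 of the 83 Ackr3 UMIs of its class.

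**Figure D2:**
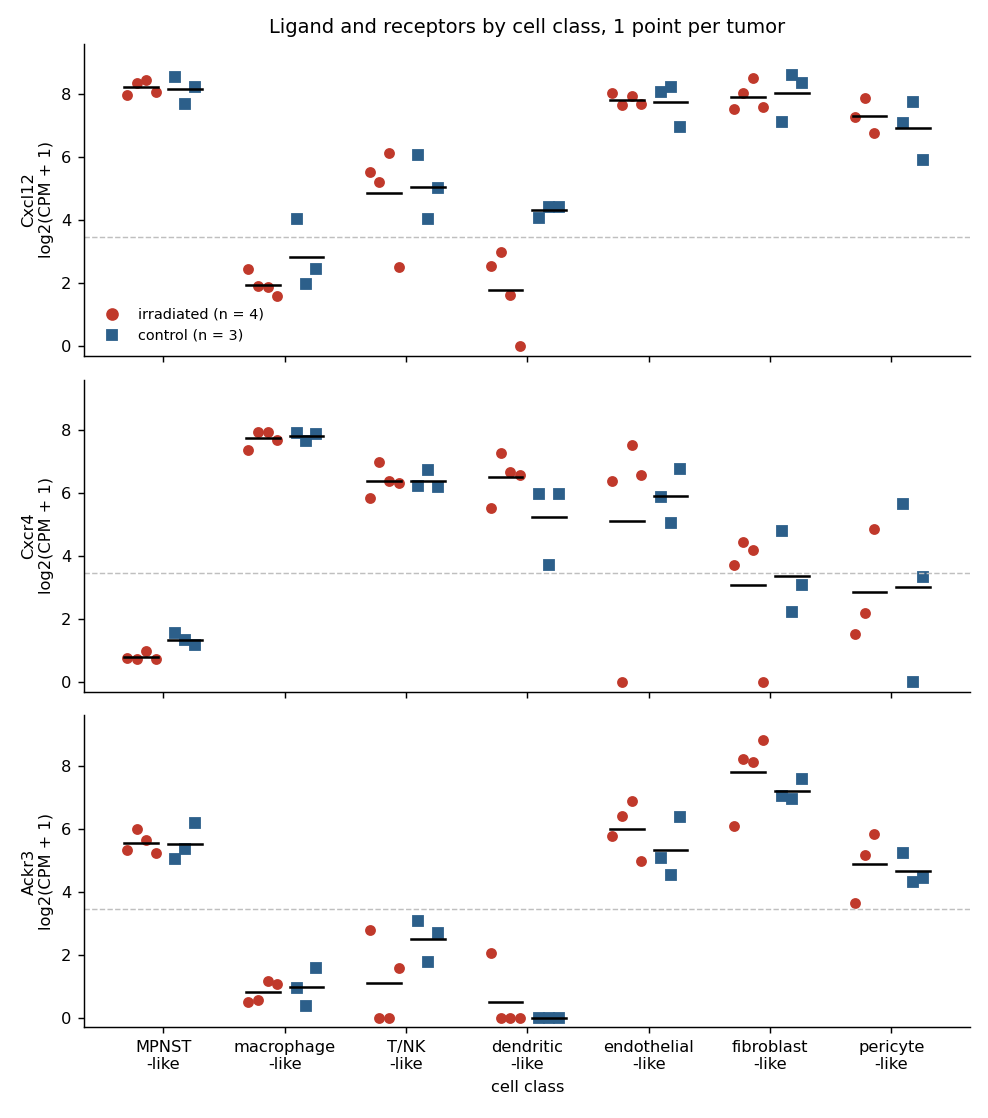
Level of each gene as log2(CPM + 1) (vertical axis) in 7 cell classes, 1 point per tumor with at least 20 cells of the class (pericyte-like cells have 3 irradiated tumors), horizontal lines for group means and a dashed line at 10 CPM. Cxcl12 is high in MPNST-like and stromal cells, Cxcr4 in macrophage-like cells and Ackr3 in fibroblast-like cells, and irradiated and control tumors overlap wherever the level is above 10 CPM in both.

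Shares of cells with a UMI were compared at equal depth. Each cell was thinned to 2000 UMIs, and shallower cells were left out. They were 199 control and 199 irradiated MPNST-like cells, 1052 and 560 macrophage-like cells, and 293 and 160 T/NK-like cells. In the same order, 60 and 33 endothelial-like, 28 and 8 fibroblast-like and 19 and 23 dendritic-like cells were left out. Cxcl12 was then found in 37.2% of MPNST-like cells (95% Wilson interval 36.4% to 37.9%, unthinned 84.6%), 34.9% of fibroblast-like, 24.2% of endothelial-like and 1.01% of macrophage-like cells. Cxcr4 was found in 33.4% of macrophage-like cells (32.5% to 34.3%, unthinned 59.2%), 15.6% of T/NK-like, 15.5% of dendritic-like, 8.32% of endothelial-like and 0.277% of MPNST-like cells. Ackr3 was found in 16.2% of fibroblast-like cells (12.9% to 20.2%, unthinned 29.0%), 8.32% of endothelial-like and 6.92% of MPNST-like cells. In dendritic-like cells it was in 0 of 367 thinned cells, which allows a share of up to 0.817%. Median depths before thinning were 23381 UMIs in MPNST-like and 6353 UMIs in macrophage-like cells, and intervals and limits cover counting error only.

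A UMI in a cell does not by itself show expression, so the low levels were set beside those of genes that are abundant in another class. Cxcr4 in MPNST-like cells was 0.504% ± 0.206 (SD, n = 7) of its level in macrophage-like cells. The macrophage genes C1qa, C1qb, Csf1r, Ctss and Lyz2 stood at 0.403% to 0.472% in the same comparison. Cxcl12 in macrophage-like cells was 1.59% ± 1.18 of its MPNST-like level, beside 1.37% to 2.07% for Col1a1, Col1a2, Col3a1 and Sparc. Ackr3 in macrophage-like cells was 1.98% ± 1.07 of its MPNST-like level. Whether these 3 low levels came from the cells themselves was not tested.

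The Cxcl12 of T/NK-like cells was set beside genes of another class in the same way. It stood at 12.3% ± 6.52 (SD, n = 7) of the MPNST-like level, beside 9.35% to 15.7% for the 3 collagen genes and Sparc. Its 263 UMIs lay in 59 of 1575 cells, and the 10 cells with most UMIs held 67.3% of them. Of 14 T/NK-like cells with at least 5 Cxcl12 UMIs, 9 were marked by Scrublet. In dendritic-like cells Cxcl12 was 3.68% ± 3.63 of the MPNST-like level, beside 2.90% to 5.40% for the same 4 genes. In fibroblast-like cells Cxcr4 stood at 5.60% ± 4.01 of its macrophage-like level, beside 3.36% to 5.74% for the 5 macrophage genes. In pericyte-like cells Cxcr4 stood higher than these genes, at 6.47% ± 8.19 (SD, n = 6) beside 3.01% to 3.86%. Its highest value over tumors was 20.9%, against at most 8.85% for these genes. The source of these low levels was not tested.

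**Figure D3:**
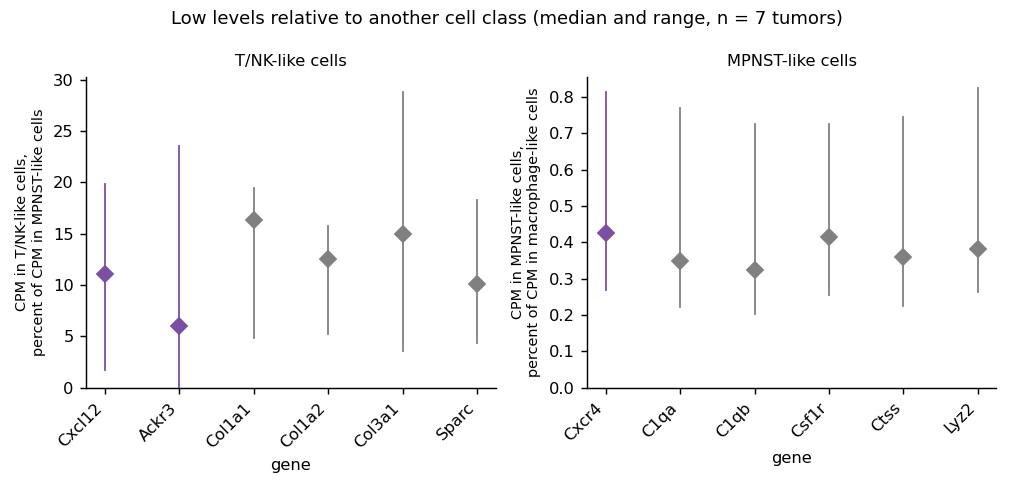
Level of each gene in T/NK-like cells as a percent of its level in MPNST-like cells (left) and in MPNST-like cells as a percent of its level in macrophage-like cells (right), with diamonds for the median and lines for the range over 7 tumors. Cxcl12 in T/NK-like cells (1.76% to 19.8%) and Cxcr4 in MPNST-like cells (0.270% to 0.814%) overlap the ranges of genes that mark the other class, drawn in gray. The lowest Cxcl12 value lies below those of its gray genes (3.53% or more).

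Radiation and the axis were compared first in whole tumors. Over all retained cells, Cxcl12 was 221 ± 53.6 CPM in irradiated (SD, n = 4) and 246 ± 75.3 CPM in control tumors (n = 3; two-sided exact permutation p 0.657). Cxcr4 was 54.1 ± 25.6 against 37.7 ± 2.57 CPM (exact permutation p 0.429), and Ackr3 was 37.6 ± 10.7 against 40.3 ± 17.3 CPM (exact permutation p 0.886). Within technical sets 1 and 2 the log2(CPM + 1) differences were 0.09 and -0.58 for Cxcl12, -0.81 and 0.83 for Cxcr4, and -0.38 and 0.40 for Ackr3. In these sums a change in the number of cells of a class and a change in the RNA per cell cannot be told apart. For Cxcr4 the irradiated tumors ran from 21.8 CPM in irradiated 1 to 80.8 CPM in irradiated 4, and both lay outside the control range of 35.1 to 40.3 CPM.

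Within classes, counts summed per tumor were fitted with edgeR over all genes. The percent of genes called at an adjusted p under 0.05 was 0% in each of the 7 classes: 0 of 17741 genes in MPNST-like, 0 of 12989 in macrophage-like, 0 of 8976 in T/NK-like, 0 of 7044 in dendritic-like, 0 of 9396 in endothelial-like, 0 of 8367 in fibroblast-like and 0 of 7091 in pericyte-like cells. In the same order, 327, 736, 374, 235, 401, 260 and 123 genes had an unadjusted p under 0.05, and DESeq2 called 3, 6, 1, 0, 0, 2 and 0 genes. None of the 3 genes of the axis was called in any class by either tool. By the exact permutation test on log2(CPM + 1), 1 of 21 gene and class pairs had p under 0.05 (0 after adjustment, smallest adjusted p 0.60). With 35 ways to split 4 against 3 tumors, the smallest p was 0.0286. A single pair could therefore not pass 0.05 after adjustment over the 21 pairs, even with the groups fully separated.

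No difference of the ligand between the groups was detected in the classes with high levels. In MPNST-like cells Cxcl12 averaged 301 ± 48.8 CPM in irradiated and 294 ± 85.5 CPM in control tumors, a log2 fold change of -0.02 ± 0.20 (SE, edgeR adjusted p 0.998). In technical set 1 the difference on the log2(CPM + 1) scale was 0.03 and in set 2 it was -0.26. Endothelial-like cells gave a log2 fold change of -0.03 ± 0.27 (edgeR adjusted p 1.000), fibroblast-like cells -0.24 ± 0.38 (0.949) and pericyte-like cells 0.30 ± 0.46 (1.000). Within the sets the fibroblast-like difference was -0.96 in set 1 and 0.93 in set 2, of opposite sign.

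Cxcr4 in macrophage-like cells averaged 215 ± 39.3 CPM in irradiated and 225 ± 19.9 CPM in control tumors, a log2 fold change of -0.09 ± 0.14 (SE, edgeR adjusted p 0.888; within sets -0.41 and -0.04 on the log2(CPM + 1) scale). T/NK-like cells gave -0.02 ± 0.26 (edgeR adjusted p 0.999; within sets -0.63 and 0.35). In dendritic-like cells the levels were 44.9, 154, 100 and 93.5 CPM in the irradiated and 62.4, 12.3 and 62.2 CPM in the control tumors. Irradiated 1 lay below 2 of the controls, and each other irradiated tumor exceeded every control. The log2 fold change was 0.90 ± 0.47 (edgeR adjusted p 1.000; exact permutation p 0.114), with 0.66 in set 1 and 0.85 in set 2, and the lowest value rested on 3 UMIs in control 2. In endothelial-like cells edgeR gave 0.53 ± 0.80 (adjusted p 1.000), whereas the difference of mean log2(CPM + 1) was -0.78, with irradiated 2 at 0.

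Cxcr4 in MPNST-like cells was the pair with the smallest permutation p, at 0.696, 0.660, 1.00 and 0.675 CPM in the irradiated and 1.94, 1.5 and 1.26 CPM in the control tumors. All 4 irradiated tumors lay below all 3 controls (log2 fold change -1.08 ± 0.24, edgeR adjusted p 0.997; exact permutation p 0.0286, adjusted p 0.60). Of all genes tested in this class, 1.33% (236 of 17741) had every irradiated tumor below every control. The 5 macrophage genes named above were also lower in 4 of 4 irradiated tumors in these cells, with log2 fold changes from -1.02 (Lyz2) to -0.72 (Ctss), and C1qa went from a mean of 26.5 CPM in control to 14.2 CPM in irradiated tumors. Cxcr4 in MPNST-like cells thus moved together with macrophage transcripts, whose part in the difference was not tested.

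Cxcl12 in dendritic-like cells was the other pair without overlap, at 4.81, 7.02, 2.09 and 0 CPM in the irradiated and 16.0, 20.6 and 20.7 CPM in the control tumors (exact permutation p 0.0571, adjusted p 0.60). It rested on 36 UMIs, too few for the edgeR filter, and 1.82% of the genes tested in this class had every irradiated tumor below every control. Col1a1, Col1a2, Col3a1 and Sparc had log2 fold changes from -3.09 to -1.70 in the same cells, with 3 of 4 irradiated tumors below all controls, and their part in the Cxcl12 values was not tested. In macrophage-like cells Cxcl12 averaged 2.98 ± 1.06 CPM in the irradiated group and 7.65 ± 6.87 CPM in the control group (log2 fold change -1.39 ± 0.57, edgeR adjusted p 0.786), and without control 1, at 15.5 CPM, the log2 fold change was -0.36.

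Ackr3 in fibroblast-like cells was 66.8, 295, 275 and 450 CPM in the irradiated and 131, 123 and 192 CPM in the control tumors. Thus 3 of 4 irradiated tumors were above all controls, and irradiated 1 was below all of them. The log2 fold change was 0.81 ± 0.52 (SE, edgeR adjusted p 0.941; exact permutation p 0.457). The difference on the log2(CPM + 1) scale was -1.19 in technical set 1, which holds irradiated 1, and 1.33 in set 2, so the direction was not shared by the sets. The highest level came from 29 fibroblast-like cells of irradiated 4.

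In endothelial-like cells Ackr3 was 53.2, 83.3, 116 and 30.6 CPM in the irradiated and 32.9, 22.3 and 82.8 CPM in the control tumors, with a log2 fold change of 0.58 ± 0.57 (edgeR adjusted p 1.000; within sets 0.30 and 1.00). In MPNST-like cells it was 38.9, 63.3, 49.1 and 36.2 CPM against 32.0, 40.1 and 71.7 CPM, with -0.12 ± 0.34 (edgeR adjusted p 0.997; within sets -0.45 and 0.58). In pericyte-like cells the log2 fold change was 0.35 ± 0.54 (edgeR adjusted p 1.000). The irradiation effect was also compared between classes on the difference within each tumor. Of 15 such tests 0 had an unadjusted p under 0.05, and the smallest was that of Ackr3 between MPNST-like and endothelial-like cells (-0.65, two-sided exact permutation p 0.286, adjusted p 1.00).

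**Figure D4:**
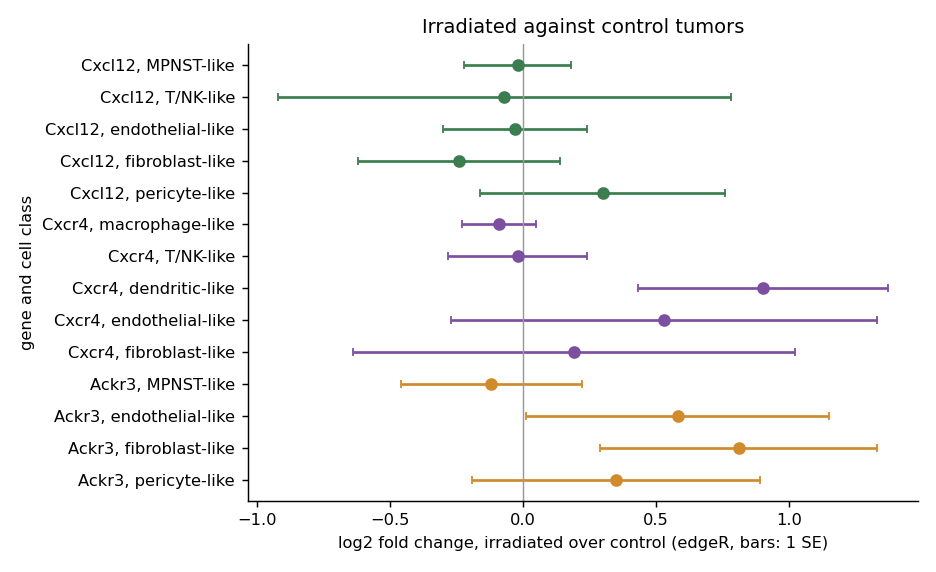
Log2 fold change of irradiated over control tumors from edgeR (horizontal axis; points) with 1 SE on each side for each pair of gene and class that averaged 10 CPM or more and was fitted. The bars of 11 of the 14 pairs include 0, and the largest fold change is that of Cxcr4 in dendritic-like cells (0.90).

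The MPNST-like cells were heterogeneous for the ligand and for Ackr3. Among clusters of at least 3 tumors, mean Cxcl12 ran from 156 ± 89.0 CPM (SD, n = 3) in cluster 10, led by the Wnt antagonist gene Wif1, to 424 ± 95.3 CPM (n = 7) in cluster 2, led by the matrix genes Cilp2 and Eln. The cycling cluster 6, led by Hmmr, Cenpe and Aspm, stood at 205 ± 49.0 CPM. Ackr3 ran from 17.2 ± 9.87 CPM in cluster 10 to 77.6 ± 42.3 CPM (n = 5) in cluster 9, led by Mdk and Map2, and the interferon cluster 15, led by Ifit1 and Gbp6, stood at 60.1 ± 19.4 CPM. The axis genes were left out of the clustering. These cluster levels are descriptions without a test.

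Within MPNST-like clusters, 18 comparisons of irradiated with control tumors gave 0 with an unadjusted p under 0.05. The smallest p was 0.100 for Ackr3 in cluster 9 (two-sided exact permutation test, the smallest possible for 3 against 2 tumors; adjusted p 0.752), at 49.0 ± 22.7 CPM in irradiated (n = 3) and 120 ± 1.71 CPM in control tumors (n = 2). In cluster 15 Ackr3 was 69.9 ± 20.5 against 47.0 ± 7.14 CPM, with 3 of 4 irradiated tumors above all controls (exact permutation p 0.200). Cxcl12 in that cluster was 264 ± 54.2 against 345 ± 73.1 CPM (exact permutation p 0.171). The clusters were rebuilt here and do not carry the numbers of the study.

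Endothelial-like cells held UMIs of all 3 genes, and their levels were compared between subsets. Cells were assigned as tip, arterial or venous by at least 2 detected genes of a small gene list and more than of the other 2 lists. Each subset was compared within tumors with comparison cells, the endothelial-like cells with fewer than 2 detected genes of that list. Remaining cells entered neither group, so the comparison cells are not all other endothelial-like cells. In irradiated 1, for example, 35 venous and 33 comparison cells came from 96 endothelial-like cells. In 59 tip cells of 4 tumors, Cxcr4 was 238, 342, 193 and 129 CPM in irradiated 1, irradiated 3, control 2 and control 3, against 19.2, 89.8, 13.7 and 13.3 CPM in the comparison cells of these tumors. Ackr3 was 106, 220, 74.1 and 97.6 CPM against 28.8, 16.3, 17.9 and 35.6 CPM. Cxcl12 had the opposite order, at 47.6, 81.5, 14.8 and 22.2 CPM in tip cells against 368, 335, 319 and 180 CPM.

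In tip cells Cxcr4 was thus higher in 4 of 4 tumors (log2 difference 3.1 ± 0.82, SD), Ackr3 was higher in 4 of 4 (2.24 ± 0.99) and Cxcl12 was lower in 4 of 4 (-3.06 ± 0.95). Each of these had an exact permutation p of 0.125, the smallest that 4 tumors allow, and an adjusted p of 0.200 over 16 subset comparisons. The tip cells were deeper than the comparison cells, with median UMIs of 13077 against 4088 in irradiated 1, and the part of depth in the differences was not tested.

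Of the 3 subsets, arterial cells had the highest mean Cxcl12 level (692 ± 274 CPM, SD, n = 5). Their median UMIs were 6732 against 3530.5 in the comparison cells of irradiated 1 and 4151 against 4458 in control 1. The part of depth in the arterial contrasts was not tested. Cxcl12 was 627, 812, 726, 1020 and 276 CPM in the arterial cells of irradiated 1, irradiated 3 and controls 1 to 3, against 316, 123, 325, 118 and 93.7 CPM in the comparison cells (log2 difference 1.90 ± 0.95, 5 of 5 tumors, exact permutation p 0.0625, the smallest possible; adjusted p 0.200). Cxcr4 in arterial cells split by tumor, at 4.24 and 25.8 CPM in the irradiated and 210, 65.8 and 229 CPM in the control tumors, against 54.5, 96.0, 9.85, 13.3 and 48.7 CPM in the comparison cells. The difference was 0.69 ± 3.19, negative in both irradiated and positive in all 3 control tumors. The groups differed by -5.54 in this contrast (two-sided exact permutation p 0.100, the smallest that 2 against 3 tumors allow). It rested on few UMIs, with 1 UMI in 24 arterial cells of irradiated 1, 2 UMIs in 10 arterial cells of irradiated 3 and 1 UMI in the 17 comparison cells of control 1. All 76 endothelial-like cells of control 1 together held 71 Cxcr4 UMIs, so cells outside this contrast also held Cxcr4.

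In venous cells the means of all 3 genes were below those of their comparison cells. Cxcl12 averaged 105 ± 33.3 CPM in venous and 628 ± 155 CPM in comparison cells (log2 difference -2.61 ± 0.33, lower in 5 of 5 tumors), and Cxcr4 averaged 23.2 ± 21.0 against 127 ± 81.8 CPM (-2.51 ± 1.23, lower in 5 of 5; both exact permutation p 0.0625, the smallest possible, and adjusted p 0.200). Ackr3 averaged 20 ± 4.89 against 80.1 ± 64.6 CPM and was lower in 4 of 5 tumors (exact permutation p 0.562). The venous cells were deeper than the comparison cells in 5 of 5 tumors, with median UMIs of 8111 against 2674 in irradiated 1, and the part of depth was not tested. Of endothelial-like cells with a Cxcr4 UMI, 54.1% also held an Ackr3 UMI, compared with 13.8% of those without, at median depths of 12049 and 5649 UMIs.

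**Figure D5:**
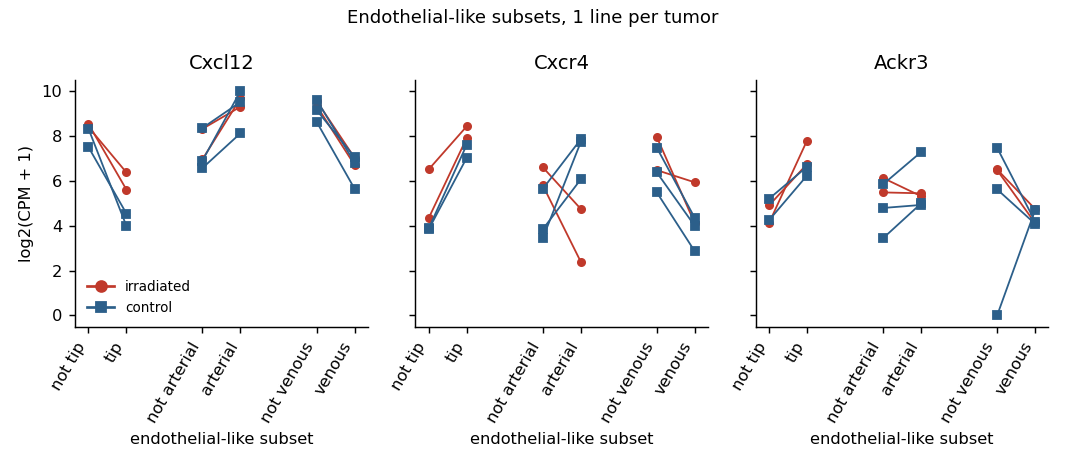
Level of each gene as log2(CPM + 1) (vertical axis) in tip, arterial and venous endothelial-like cells and in the cells that lack each list, with 1 line per tumor that had at least 10 cells in both. In tip cells Cxcr4 and Ackr3 lines rise in 4 of 4 tumors and Cxcl12 lines fall in 4 of 4, and in arterial cells Cxcl12 lines rise in 5 of 5.

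Cxcr4 was also compared between subsets of macrophages and lymphocytes. Macrophage-like cells with Ly6c2 and no Mrc1, a monocyte pattern, held 278 ± 48.5 CPM of Cxcr4 and those with Mrc1 and no Ly6c2 held 227 ± 34.6 CPM (SD, n = 7; log2 difference 0.29 ± 0.33, higher in 6 of 7 tumors, exact permutation p 0.0469, adjusted p 0.200). By cluster, mean Cxcr4 was 293 ± 75.4 CPM in cluster 0, led by Ccl8 and Apoe, 226 ± 28.6 in the interferon cluster 3, 231 ± 38.5 in cluster 4, led by Pf4 and Arg1, and 184 ± 33.2 in the cycling cluster 13. It was lower in cluster 19, led by the osteoclast genes Acp5 and Ctsk, with 76.6 ± 17.9 CPM (n = 5), and in cluster 23, led by P2ry12 and Fat3, with 75.2 ± 20.4 CPM. In T cells, Cxcr4 was 71.7 ± 46.3 CPM in CD8, 85.0 ± 43.3 in conventional CD4 and 72.0 ± 12.2 in Foxp3 regulatory cells, which did not differ beyond their spread (log2 differences from CD4 -0.23 ± 0.62 and -0.05 ± 0.83). NK cells held 10.7 ± 12.3 CPM against 52.4 ± 19.4 CPM in CD8 cells of the same 4 tumors, lower in 4 of 4 (exact permutation p 0.125, the smallest possible), on 6 UMIs in 49 NK cells. The NK cells were deeper than the CD8 cells in each of these tumors, with median UMIs of 5807 against 2831.5 in irradiated 1. The Ly6c2 cells were shallower than the Mrc1 cells in each tumor, with 3599 against 6152 in irradiated 1. The part of depth in these differences was not tested.

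The levels of hypoxia genes were summed per cell, and the upper 25% and lower 25% of cells were compared in each tumor. In macrophage-like cells, Cxcr4 was 168, 206, 195 and 189 CPM in the upper group of the irradiated and 196, 164 and 217 CPM of the control tumors, against 184, 306, 304, 220, 292, 268 and 241 CPM in the lower group. It was lower in the upper group in 7 of 7 tumors, by 0.43 ± 0.25 on the log2(CPM + 1) scale (exact permutation p 0.0156, the smallest possible; adjusted p 0.200). In MPNST-like cells Ackr3 was 50.6 ± 14.2 CPM in the upper and 40.9 ± 14.6 CPM in the lower group (0.32 ± 0.41, higher in 6 of 7 tumors, exact permutation p 0.0781, adjusted p 0.200). Cxcl12 was 297 ± 67.2 and 292 ± 58.8 CPM (0.01 ± 0.23). Upper group cells were deeper in 7 of 7 tumors in both classes, for example 25671.5 against 17564.5 median UMIs in MPNST-like and 4889 against 4493 in macrophage-like cells of irradiated 1, and the part of depth was not tested.

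The genes whose levels were most like each member were listed by Pearson correlation over the 48 class and tumor sums, across 12113 genes. For Cxcl12 these were Tead1 (0.954), Gulp1 (0.952), Sparc (0.947), Mir100hg (0.945) and Rbfox2 (0.943). For Cxcr4 they were Vsir (0.895), Inpp5d (0.891), Hcls1 (0.881), Tmem160 (0.879) and Arhgap25 (0.872). For Ackr3 they were Tulp4 (0.928), Csgalnact1 (0.926), Plpp3 (0.922), Ccn2 (0.918) and Fam114a1 (0.918). The sums share tumors, libraries and depth, so the correlations are descriptions only.

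Other genes of the pathway, 41 in 6 roles, were measured in the same classes. Among other ligands and partners, Cd74, the receptor of MIF and an invariant chain of antigen presentation, was at 16298 CPM in dendritic-like and 2893 CPM in macrophage-like cells, and Mif was at 515 CPM in MPNST-like and 204 to 321 CPM in the other classes. Among genes for ligand processing, the gelatinase gene Mmp2 was at 1114 CPM in fibroblast-like and 579 CPM in MPNST-like cells. Dpp4, a protease that trims the amino end of CXCL12, was at 100 to 160 CPM over tumors in dendritic-like cells and averaged 47.5 CPM in T/NK-like and 0.0781 CPM in MPNST-like cells. Among migration effectors, Dock2, Rac2 and Vav1 were leukocyte genes, with Rac2 at 495 CPM in T/NK-like and 0.914 CPM in MPNST-like cells. Of the desensitization genes, Rgs1 was at 480 CPM in macrophage-like and 442 CPM in T/NK-like cells and Arrb2 at 193 CPM in macrophage-like cells, whereas Grk5 was at 417 CPM in endothelial-like cells.

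By irradiation, 0 of these genes rose and 0 fell at an adjusted p under 0.05 in any class, of 39 tested in MPNST-like and in macrophage-like, 35 in T/NK-like and in dendritic-like, 34 in endothelial-like, 32 in fibroblast-like and 27 in pericyte-like cells. Their median log2 fold changes lay between -0.12 (MPNST-like) and 0.07 (dendritic-like), beside medians between -0.01 and 0.01 over all genes tested. In macrophage-like cells the largest values per role were 1.69 ± 0.82 (SE) for Cxcl11, another ligand of ACKR3, -1.15 ± 0.36 for the gelatinase gene Mmp9, 0.21 ± 0.13 for Gng2, 0.42 ± 0.11 for the arrestin gene Arrb1, 0.34 ± 0.17 for Ptk2b and -0.44 ± 0.33 for Klf2 (edgeR adjusted p 0.786 to 0.808). In these macrophages Cxcl11 stood at 32.0 ± 27.6 CPM after irradiation and 9.81 ± 6.85 CPM without it, and Mmp9 at 76.3 ± 39.1 and 166 ± 50.0 CPM. In MPNST-like cells they were -0.56 for Cd74, -0.17 for Sdc4, -0.22 for Gnb2, -0.20 for Rgs16, -0.55 for Elmo1 and -0.54 for Klf2 (edgeR adjusted p 0.997).

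In T/NK-like cells the largest values per role were 0.09 for Mif, 0.64 for Mmp2, -0.20 for Gnai3, -0.54 for Grk5, -0.63 for Ptk2 and 1.43 ± 0.31 for the hypoxia factor gene Epas1 (edgeR adjusted p 0.996 for each), with Epas1 at 41.2 ± 12.3 CPM in irradiated and 15.1 ± 3.67 CPM in control tumors. Dendritic-like cells had -0.18 for Hmgb1, -2.78 for Mmp2, -0.22 for Gnb2, 0.68 for Grk5, -0.39 for Ptk2 and 0.40 for Nr3c1. Mmp2 averaged 1114 CPM in fibroblast-like and 579 CPM in MPNST-like cells, and its dendritic-like value stood beside the values of -3.09 to -1.70 for Col1a1, Col1a2, Col3a1 and Sparc, whose part in it was not tested. Endothelial-like cells had -1.69 for Cd74, -2.37 for Mmp9, -0.47 for Gnai1, 0.69 for Grk6, 0.26 for Elmo1 and -0.61 for the flow-responsive factor gene Klf2 (edgeR adjusted p 1.000 in both classes). Fibroblast-like cells had 0.87 for Adm, another ligand that ACKR3 binds, -0.30 for Mmp14, 0.45 for Gng2, -0.98 for Rgs1, 0.99 for Ptk2b and -0.66 for Klf2 (edgeR adjusted p 0.941). Pericyte-like cells had 0.31 for Cd74, 0.35 for Mmp2, 0.25 for Gnai3, 0.29 for Rgs16, -0.64 for Elmo1 and 0.29 for Foxo1 (edgeR adjusted p 1.000).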

How the data were processed

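For each of the 7 libraries the authors deposited UMI counts of every gene in every called cell. The file headers name Cell Ranger 8.0.0. The submitters' processing notes name mm10, Cell Ranger and Seurat 4.4, and whether intronic reads were counted is not given in the sources used here. Groups came from the labels (4 irradiated, 3 control). The 3 genes, the pathway and marker lists, and the tests were chosen with earlier results of these data known.

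Cells beyond 3 median absolute deviations in UMIs, genes, mitochondrial or ribosomal share were removed. Cells were scaled to 10000 UMIs each, and 3000 variable genes without the axis and pathway genes gave 30 principal components, 20 neighbors and Leiden clusters at resolution 1 (scanpy 1.11.5, leidenalg 0.10.2). Clusters with Xist in under 25% of cells could be named only MPNST-like, and no other cluster could. The paper describes male tumor cells in female hosts, with Xist restricted to the host. A class needed 3 or more markers, each with a UMI in 25% or more of the cells in a cluster and 2 times its level elsewhere or more. For low-Xist clusters, elsewhere meant only the clusters with Xist in 25% or more of cells. Some naming and clustering settings were set after the cells were seen, and 4 clusters stayed unnamed (1 with hits of 2 lists, 1 without 3 markers of any list and 2 of low depth). Scrublet calls stayed in the reported values.

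UMI counts were summed per class in tumors with at least 20 cells of it and tested with edgeR 4.0.16 (quasi-likelihood, robust, filterByExpr, TMM, Benjamini-Hochberg, threshold 0.05), after a test on simulated data. Single values used two-sided exact permutation tests of log2(CPM + 1), over 35 splits of the tumors between groups or 128 sign patterns within tumors, with Benjamini-Hochberg adjustment per family. Subsets needed at least 10 cells per tumor. Single-sample intervals are exact Poisson and shares Wilson intervals at 95%, and a count of 0 was given a limit of 3 counts. UMIs remove amplification copies, but the intervals cover counting error only. No source says more of the replicates than that they are separate tumors of 1 cell line.

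Named genes were the 3 members and, in each class, pathway genes past an adjusted p of 0.05 plus, per role, the gene with the largest absolute log2 fold change among those with a mean of at least 10 CPM. The 5 genes most like each member were ranked by Pearson correlation. Alternatives were DESeq2 1.42.0, DESeq2 size factors, no filterByExpr, a technical set term, a replicate block, no cell filter, Scrublet calls removed, per-cell marker gates, log2(CPM + 10) and leaving out each tumor. The pseudocount of 10 for the comparison of groups by class was added after seeing the data.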

Additional observations from a re-analysis of the deposited data

Results flagged for a closer look

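Keratinocyte-like cells entered no comparison because only 3 tumors had at least 20 of them (28 in irradiated 2, 28 in irradiated 4 and 37 in control 2). All 3 genes were above the control value in an irradiated tumor there. Cxcl12 stood at 78.2 CPM in irradiated 2 (26 UMIs), 4.32 CPM in irradiated 4 and 7.10 CPM in control 2. Cxcr4 stood at 10.1 CPM in irradiated 4 (7 UMIs), 0 CPM in irradiated 2 and 4.73 CPM in control 2. Ackr3 stood at 207 CPM in irradiated 2 (69 UMIs), 13.0 CPM in irradiated 4 and 11.8 CPM in control 2. With 1 control tumor these values have no test.

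The contrast of arterial endothelial-like cells with their comparison cells had opposite directions in the groups for both receptors, 2 of the 34 contrasts between subsets or classes of cells that were compared. For Cxcr4 it averaged -2.63 in the irradiated tumors (n = 2) and 2.91 in the control tumors (n = 3) on the log2(CPM + 1) scale, a difference of -5.54 (two-sided exact permutation p 0.100, the smallest possible), resting on 1 and 2 UMIs in the irradiated arterial cells. For Ackr3 it averaged -0.42 and 1.04, a difference of -1.46 (exact permutation p 0.200). Ackr3 was nearly tied in irradiated 1 (42.4 against 43.6 CPM) and control 2 (29.3 against 26.6 CPM). It rested on 3 against 5 UMIs in irradiated 3 and 6 against 1 in control 1, and control 3 stood at 154 against 56.2 CPM. Neither contrast passes 0.05, and no adjustment over the 34 contrasts was made. In the 13 gene and class pairs that averaged 10 CPM or more and had 4 irradiated tumors, 0 tumors stood apart from the others by Dixon's criterion at 95%, where chance marks about 1 in 20 groups.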

How the results depend on the processing

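None of the 17 log2 fold changes of an axis gene in a class passed an adjusted p of 0.05 under any alternative run (smallest 0.178, Cxcr4 in MPNST-like cells with DESeq2), and 215 of 250 alternative values kept their direction. The replicate numbers did not pair the tumors (correlations of same-numbered tumors from -0.454 to 0.101). The replicate block turned Cxcl12 to 0.08 in MPNST-like, 0.46 in T/NK-like and 0.10 in endothelial-like cells and Ackr3 to 0.10 in MPNST-like cells, and it called 2 genes in dendritic-like cells. The technical set term gave -0.06 for Cxcr4 in fibroblast-like, 0.07 for Ackr3 in MPNST-like and -0.07 for Ackr3 in pericyte-like cells. Removing Scrublet calls gave 0.68 for Cxcl12 in T/NK-like cells. Marker gates turned Cxcr4 to 0.25 (macrophage-like) and 0.23 (T/NK-like). The cause of these turns was not tested.

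Genes called over all genes numbered 0 in each class with edgeR, against 3 (MPNST-like), 6 (macrophage-like), 1 (T/NK-like) and 2 (fibroblast-like) with DESeq2, and without filterByExpr 50 (T/NK-like), 46 (dendritic-like), 89 (endothelial-like) and 7 (pericyte-like). Marker gates called 8 genes in dendritic-like cells. Leaving out each tumor in turn called 0 to 1 gene in macrophage-like (1 without irradiated 1), 0 to 3 in dendritic-like (3 without control 1, 2 without irradiated 1) and 0 to 2 in endothelial-like cells (2 without irradiated 1).

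The same left-out tumors moved Cxcl12 between -0.24 and 0.13 in MPNST-like, -0.53 and 0.65 in T/NK-like, -0.34 and 0.22 in endothelial-like, -0.57 and 0.05 in fibroblast-like and -0.06 and 0.72 in pericyte-like cells. Cxcr4 moved between -0.16 and 0.01 in macrophage-like, -0.26 and 0.19 in T/NK-like, -0.01 and 1.08 in endothelial-like and -0.33 and 1.19 in fibroblast-like cells. Ackr3 moved between -0.38 and 0.37 (MPNST-like), -0.82 and 0.37 (macrophage-like) and -0.28 and 0.80 (pericyte-like). Without changing sign, endothelial-like Ackr3 (0.58) moved to 0.18 without irradiated 3 and 1.32 without control 3. Fibroblast-like Ackr3 (0.81) moved to 0.48 without irradiated 4 and 1.15 without irradiated 1, and it was 0.08 with the technical set term, 0.23 with marker gates and 0.27 with the replicate block.

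Among level orders, marker gates turned the Cxcl12 differences of MPNST-like minus fibroblast-like cells to -0.12 and dendritic-like minus macrophage-like cells to -1.91, the Cxcr4 differences of endothelial-like minus dendritic-like cells to 1.23 and pericyte-like minus fibroblast-like cells to 0.56, and the Ackr3 difference of T/NK-like minus macrophage-like cells to -1.01. Leaving out tumors gave -0.04 to 0.35 for Cxcl12 in fibroblast-like minus endothelial-like cells. For Cxcr4 it gave -0.09 to 1.27 in T/NK-like minus endothelial-like cells and -0.81 to 0.62 in endothelial-like minus dendritic-like cells, both turned without irradiated 2. Among subsets, Cxcr4 in regulatory minus CD4 cells was 0.07 with no cell filter, 0.01 without Scrublet calls and -0.28 to 0.13 over left-out tumors. Over left-out tumors, Cxcr4 in arterial minus comparison cells ran from -0.21 (without control 1) to 1.71, and Cxcl12 by hypoxia level in MPNST-like cells from -0.03 to 0.07. The interaction and cluster comparisons kept 0 calls under the alternatives run, and marker gates were not run for clusters. With few splits of the tumors and adjustment over 15 and 18 tests, a call needed many tests at their smallest p. The 0 calls are therefore no measure of stability. Without thinning, 20 of 21 shares of cells with a UMI lay above the interval of the thinned share. Dendritic-like, endothelial-like, fibroblast-like and pericyte-like values rested on 13 to 230 cells per tumor.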

Other observations

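An unnamed cluster of 502 cells, led by the macrophage genes Folr2, Cx3cr1 and Mrc1, held both the ligand and its receptors. Its mean levels were 211 ± 51.1 CPM of Cxcl12, 59.4 ± 12.7 CPM of Cxcr4 and 46.8 ± 29.2 CPM of Ackr3 (SD, n = 7). Its cells had a median of 29725 UMIs, 2.62 times the median of their libraries, and no marker list had 3 hits in it. Median depths were 23381 UMIs in MPNST-like and 6353 UMIs in macrophage-like cells. The part of doublets of these classes in the levels of the cluster was not tested.

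Of MPNST-like cells with a Cxcl12 UMI, 34.2% also held an Ackr3 UMI, compared with 18.2% of those without, at median depths of 25406 and 11580 UMIs. In fibroblast-like cells these shares were 33.2% and 19.2%, at 12130 and 7358 UMIs. The part of depth was not tested.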
